A study of Mus musculus with 12 samples.

Results

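Gene expression was compared between treated and untreated cells of control mice, which carry Stat5a and Stat5b, on 6 of the 12 arrays of the series. The 6 arrays are those labelled control, 3 treated and 3 untreated, and a treated array was paired with the untreated array that bears the same date in its title. The other 6 arrays hold cells of mice that lack Stat5a and Stat5b in blood cells, again 3 treated and 3 untreated, and are called knockout below. The series asks how STAT5 takes part in granulocyte formation driven by GM-CSF. The treatment field of the labels gives only the letters GMP, which may name an agent or the cells, so the word treatment is used here. Dose, duration, the age of the mice, the way the genes were deleted and the number of mice behind a sample are not given in the sources used here. No label states that replicates came from separate animals, so the p-values measure the spread between these samples, which may be partly technical.

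GM-CSF is a cytokine that promotes survival, division and maturation of myeloid cells. It binds an α chain and a shared β chain, and the β chain carries the kinase JAK2, which phosphorylates STAT5, while the same receptor also engages the RAS-ERK, PI3K and NF-κB pathways. Granulocyte-macrophage progenitors are bone marrow cells that give rise to neutrophils and monocytes and are rich in transcripts of primary granule proteins.

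The 6 arrays carried the transcripts of such progenitors at high signal. None of the 13 granulocyte-macrophage progenitor markers measured lay below the median of all values (a signal of 70.5) on all 6 arrays. The same held for the 10 megakaryocyte and platelet and the 8 mature neutrophil markers measured, so this alone does not set progenitors apart. Progenitor markers summed to 97523 to 203770 untreated and 84864 to 246604 treated. Mast cell and basophil markers, 4 of 10 below the median on all 6 arrays, summed to 11574 to 12779 and 6997 to 14406. Mpo, the granule peroxidase, read 16942, 55927 and 17378 on the untreated arrays of dates 1, 2 and 3 and 19738, 111812 and 18869 on the treated ones, so the groups overlapped, with date 2 high in both. The stem cell factor receptor Kit read 3789, 917 and 3353 untreated and 5457, 623 and 3353 treated. Most progenitor markers had estimates below 0: the median over the 13 was -0.47, 2 were above 0 (Mpo and Fcgr2b), and 2 passed the test, Fcgr2b higher by 1.46 ± 0.36 and Irf8 lower. The call of Fcgr2b held without the treated knockout array of date 1 or date 2 and in none of the other 10 fits that left out 1 array. Cd34 (-1.25 ± 0.45), Cebpa (-1.12 ± 0.38) and Gfi1 (-1.37 ± 0.56) were not past the threshold. Of the T and NK cell markers 5 of 8 lay below the median on all 6 arrays, Cd3e, Cd3d, Cd3g and Cd4 among them, and so did 3 of 12 monocyte and macrophage markers, namely C1qa, C1qb and C1qc. Thy1, also a T cell marker, was the 1 member of its list past the threshold. It read 91.1, 108 and 65.2 untreated and 227, 532 and 147 treated, a rise of 1.47 ± 0.32 (limma, adjusted p = 0.0274) that was lost without any 1 of the 6 control arrays (adjusted p up to 0.108). The summed signal of its list was 304 to 412 untreated and 397 to 739 treated. The summed signal of the monocyte and macrophage markers was 11481 to 30735 untreated and 20069 to 47091 treated, and 1 of its members passed the test, Cd14. For the mature neutrophil markers it was 4497 to 25687 untreated and 5190 to 12787 treated, with no member past the threshold. In such a mixture a lower signal can mean fewer cells of a type or less RNA per cell, which cannot be told apart. The control arrays of date 2 stood apart: the 3' over 5' signal ratio of Actb was 59.5 to 266 on them and 1.22 to 2.05 on dates 1 and 3, and their highest signals were 71990 to 145869 against 19290 to 22231.

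Treatment was followed by a change in 800 of 11815 genes, 6.77% of those tested, in a limma fit with array date as a block (Benjamini-Hochberg adjusted p under 0.05). More genes rose than fell, 497 (4.21%) against 303 (2.56%), and the rises were larger: 73 genes rose and 7 fell by at least 3 on the log2 scale. A log2 change here is the difference in log2(signal + 13), which understates the change of dim genes, and the median over all genes was -0.040. Signals of the 3 treated and the 3 untreated arrays did not overlap for 609 of the 800 genes, against 1894 of all genes (16%). The 609 are among the 1894, and the fit chose the 800 from these same arrays, so this contrast is no support for the calls. Among the rises, 73 genes lay below the median of all values on every untreated array and above it on every treated array, and 8 genes that fell did the reverse. Genes were tested only if they exceeded this same median on 3 or more of the 12 arrays. Of the control arrays, the 73 genes did so on treated ones alone and the 8 on untreated ones alone. Both counts therefore rest in part on that filter and are a description.

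The change was not the same on all dates. Of all 11815 genes 5986 had an estimate of the same sign on all 3 dates, and 798 of the 800 genes did, a number that the fit with the date block largely sets in choosing them. Across all genes the change on date 1 correlated with that on date 3 with a Pearson r of 0.68, and date 2 with dates 1 and 3 with 0.42 and 0.51, as a description over genes that share arrays and are not independent. The number of calls depended on single arrays. It was 169 higher and 68 lower without the treated control array of date 3, and 195 and 69 without the untreated one. Leaving out a control array of date 1 or the untreated control array of date 2 also moved both counts by over 1.5 times, to between 227 and 267 higher and 95 and 120 lower. Without the untreated knockout array of date 1 or either knockout array of date 3 the count of lower genes was 170 to 174. Of the 800 genes 187 passed in each of the 12 fits that left out 1 array, and 165 without the block. Below, a replicate is the control array of that group and date number, and "all 12 fits" are those without 1 array. Where a range of list counts over these fits is given below, its lowest count came without treated replicate 3, alone or among others, unless another array is named. Every list count below is to be read beside the share of all genes, 4.21% higher and 2.56% lower.

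**Figure D1:**
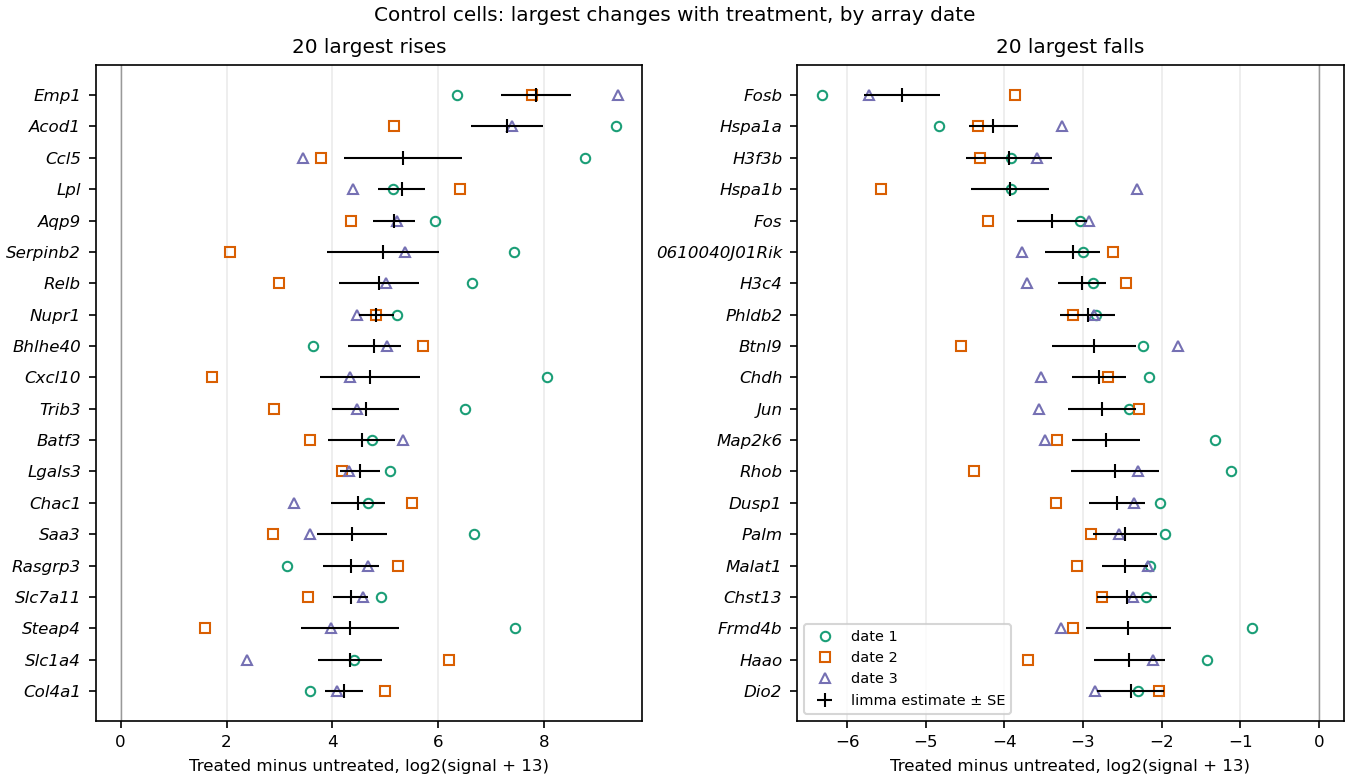
Change with treatment in control cells for the 20 largest rises and the 20 largest falls, as the difference in log2(signal + 13) on each of 3 dates (open symbols) and as the limma estimate with its SE (black). Emp1 and Acod1 stand above the other rises, Fosb leads the falls, and Ccl5, Serpinb2, Cxcl10 and Steap4 are spread widely, with date 1 highest.

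Jak2 and 2 β chain genes of the receptor family rose, while the GM-CSF receptor α chain gene was not past the threshold. Csf2rb2, which encodes the β chain specific to the IL-3 receptor in mice, read 282, 499 and 389 on the untreated arrays of dates 1 to 3 and 3121, 2484 and 3840.1 on the treated ones. Every treated array was above every untreated array, and the log2 rise was 2.98 ± 0.40 (limma, adjusted p = 0.00335). Jak2 went from 1055, 2394 and 1426 to 4375, 7507 and 4475, again with no overlap, a rise of 1.77 ± 0.28 (limma, adjusted p = 0.00643). The shared β chain gene Csf2rb rose by 1.66 ± 0.28, a call that ended without treated replicate 3 (adjusted p = 0.0521). The α chain gene Csf2ra was not past the threshold, at -0.53 ± 0.22 (adjusted p = 0.175), and neither were Stat5a (-0.62 ± 0.39) and Stat5b (-0.50 ± 0.47). Stat5a read 1147, 905 and 833 untreated and 872, 375 and 713 treated in control cells. In knockout cells it averaged 60.6 ± 35.4 untreated and 36.00 ± 8.84 treated (SD, n = 3 each). Of 24 myeloid cytokine receptor genes tested, 4 rose and 1 fell (1 to 5 rose in the fits without 1 array), with a median change of 0.34. Of 10 JAK and STAT genes Jak2 alone passed the threshold (10%, against 6.77% of all genes).

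Cish, whose protein damps signalling by cytokine receptors and whose transcription STAT5 is known to drive, rose on every date. Cish read 188, 512 and 252 on the untreated arrays and 4853, 5294 and 5461 on the treated ones. The 3 treated arrays were nearly level and each was far above the highest untreated array. The log2 rise was 4.10 ± 0.26 (limma, adjusted p = 1.12e-04). Other members of the list of STAT5 targets and cytokine feedback genes rose too: Cdkn1a, an inhibitor of cyclin-dependent kinases, by 3.51 ± 0.32, and the survival kinase gene Pim1 by 1.60 ± 0.24. Pim1 read 4023, 3925 and 6040.1 untreated and 14146, 12954 and 14479 treated. In knockout cells, which lack Stat5a and Stat5b, Cdkn1a changed by 3.58 and Pim1 by 1.68. In all 6 of 25 members rose and none fell (3 to 8 rose in the fits without 1 array), with a median change of 0.59. Myc read 4008, 3852 and 2659 untreated and 5813, 4527 and 4365 treated, a change of 0.49 ± 0.32 that was not past the threshold (adjusted p = 0.405).

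Socs2 and Socs3, which encode further feedback inhibitors of cytokine signalling, counted as not called in this list because of the probe set that stood for them. For each gene the passing probe set with the highest mean was used, and sets whose names mark them as cross-hybridizing (x_at) were used only where no other passed. The set used for Socs2 changed by 0.55 ± 0.37 (adjusted p = 0.440). Another Socs2 set read 9.80, 26.8 and 3.86 untreated and 470.4, 1445 and 718 treated, and the remaining set read 4.44, 6.68 and 56.8 untreated and 493, 502 and 919 treated. Both rose, by 5.01 ± 0.36 (adjusted p = 1.56e-04) and 4.44 ± 0.33 (adjusted p = 1.97e-04), in a limma fit over all 21363 passing probe sets. For Socs3 the set used changed by 2.87 ± 1.03 (adjusted p = 0.145), with signals of 59.8, 92.5 and 64.9 untreated and 1872, 125 and 878 treated, so that date 2 hardly moved. A Socs3 set marked as cross-hybridizing read 22.8, 225 and 59.7 untreated and 7580.3, 6484 and 6297 treated, a rise of 6.31 ± 0.79 (adjusted p = 0.00257). Such a set can also report related transcripts.

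Several other genes depended on the probe set in the same way. In the fit over probe sets 1004 sets passed the threshold, 676 higher and 328 lower, and 207 genes not called had another set that passed. The 6 genes with the largest such changes, chosen after their values were seen, were Socs2, Socs3, Tgm2, Vldlr, Hspa8 and Rgl1. For Tgm2, a transglutaminase gene, 3 cross-hybridizing sets rose by 5.72 ± 0.73, 5.01 ± 0.50 and 4.71 ± 0.45, while the set used changed by 0.49 ± 0.31. The lipoprotein receptor gene Vldlr rose in 4 of its 5 sets, for example by 2.56 ± 0.27 in a set that read 37.6, 39.5 and 56.3 untreated and 362, 389 and 239 treated. The chaperone gene Hspa8 fell by 3.82 ± 0.46 in 1 of 4 sets, from 1909, 5097 and 7211 to 401, 214 and 256, and changed by -0.38 ± 0.25, -0.47 ± 0.38 and 0.28 ± 0.25 in the others. Malat1, a nuclear noncoding RNA, fell by 2.47 ± 0.29 in the set used and fell by 2.48 in another (adjusted p = 0.00969). Its other 5 sets were not past the threshold, 3 of them lower (-1.51, -0.68 and -0.61) and 2 higher (0.83 and 1.05). The named genes called in control cells had 116 other passing sets. Of these 41 passed the threshold in the same direction and 4 had the opposite sign. For example, other sets of Jak2, Serpinb8 and Zc3h12a changed by 1.26 ± 0.45, 1.03 ± 0.70 and 0.52 ± 0.28 and were not past it.

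**Figure D2:**
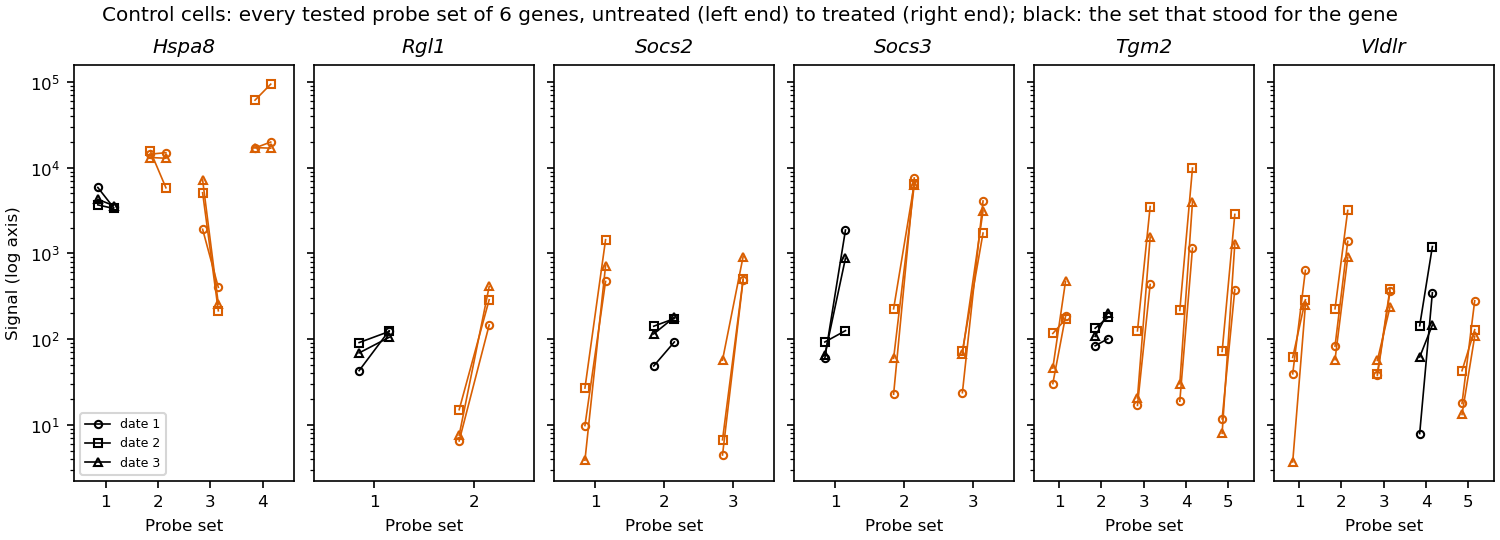
Signal (log axis) of every tested probe set of Hspa8, Rgl1, Socs2, Socs3, Tgm2 and Vldlr in control cells, each line joining the untreated (left) to the treated (right) array of 1 date. Black lines are the set that stood for the gene, and for Socs2 and Tgm2 it is nearly flat beside sets that rise steeply, for Tgm2 up to 9888.

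The promoter of Cish, taken from RefSeq (GRCm38.p6, + strand, chr9:107296619-107296678), is shown because it holds 2 matches to the STAT motif TTCNNNGAA next to each other at the annotated start. Capitals mark the matches. The Emp1 window (chr6:135362771-135362930, + strand) ends at the base before the annotated start and holds 2 matches, beginning 120 and 22 bases before it.
Cish: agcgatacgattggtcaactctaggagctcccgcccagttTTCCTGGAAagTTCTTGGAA
Emp1: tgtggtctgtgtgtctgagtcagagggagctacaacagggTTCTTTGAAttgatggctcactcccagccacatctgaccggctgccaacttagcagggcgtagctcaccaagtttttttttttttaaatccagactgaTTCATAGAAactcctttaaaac
Both strands of the 300 bases around each start (250 before, 50 after) were searched. Among the 20 largest rises 16 had a promoter sequence, and 6 of these held TTCNNNGAA, namely Emp1, Serpinb2, Nupr1, Batf3, Slc7a11 and Steap4. Of the 20 largest falls 1 held it, Chdh, against 9.55% of 27025 genes. The AP-1 motif TGANTCA was found in 4 of the 16 and 3 of the 20, against 8.97%. A match describes letters in a window and is not evidence of binding. In the order named, the 6 rises with TTCNNNGAA changed by 7.83, 4.955, 4.83, 4.55, 4.34 and 4.34 in control cells. In knockout cells the same 6 genes changed by 6.58, 5.05, 4.57, 0.46, 5.10 and 4.05.

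Immediate early genes included some that fell and some that rose, and most gave no call. The AP-1 genes Fosb, Fos and Jun, which encode subunits of a transcription factor induced within minutes of stimulation, were high without treatment. Fosb read 4249, 1441 and 7625 untreated and 40.3, 86.9 and 131 treated, with no overlap, and fell by 5.30 ± 0.48 (limma, adjusted p = 3.80e-04). Fos read 9622, 32299 and 12413 untreated and 1159, 1733 and 1617 treated and fell by 3.39 ± 0.44. Jun was lower on every date and fell by 2.76 ± 0.43, from 6189, 443 and 7842 to 1145, 80.2 and 655, but the date 2 arrays were low in both groups, so the groups overlapped and the adjusted p without the date block was 0.430. Egr1, a member of the list named after its value was seen, read 1333, 2597 and 3767 untreated and 694, 678 and 545 treated and was not past the threshold (limma, adjusted p = 0.063).

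Other members of the same families rose from low signals. Batf3, a transcription factor of dendritic cells, read 23.02, 7.75 and 14.3 untreated and 949, 234 and 1092 treated, a rise of 4.55 ± 0.64 (limma, adjusted p = 0.00406). Maf went from 16.99, 32.2 and 20.3 to 812, 206 and 517, a rise of 3.68 ± 0.50. All treated arrays were above all untreated ones for both genes. In the AP-1 and MAF family 5 of 16 members rose and 3 fell (3 to 5 rose and 3 fell in the fits without 1 array). Among 27 other immediate early genes 7 rose and 2 fell (3 to 7 and 0 to 3). Bhlhe40, a repressor, rose by 4.79 ± 0.51 from 62.9, 10.98 and 87.5 to 931, 1242 and 3273, and the EGR corepressor gene Nab2 by 3.31 ± 0.45. Rhob fell by 2.60 ± 0.56, a call that ended without untreated replicate 2 or 3 or treated replicate 2 or 3 (adjusted p up to 0.104). Genes that restrain ERK signalling also moved in both directions, 4 of 16 higher (3 to 5, the lowest without untreated replicate 3) and 1 lower. Dusp1, a phosphatase of MAP kinases, read 4878, 11172 and 8880.0 untreated and 1188, 1093 and 1731 treated and fell by 2.57 ± 0.35. Dusp16, a phosphatase that acts on JNK and p38, rose by 3.92 ± 0.65 and the RAS-ERK inhibitor gene Spred1 by 2.04 ± 0.22.

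**Figure D3:**
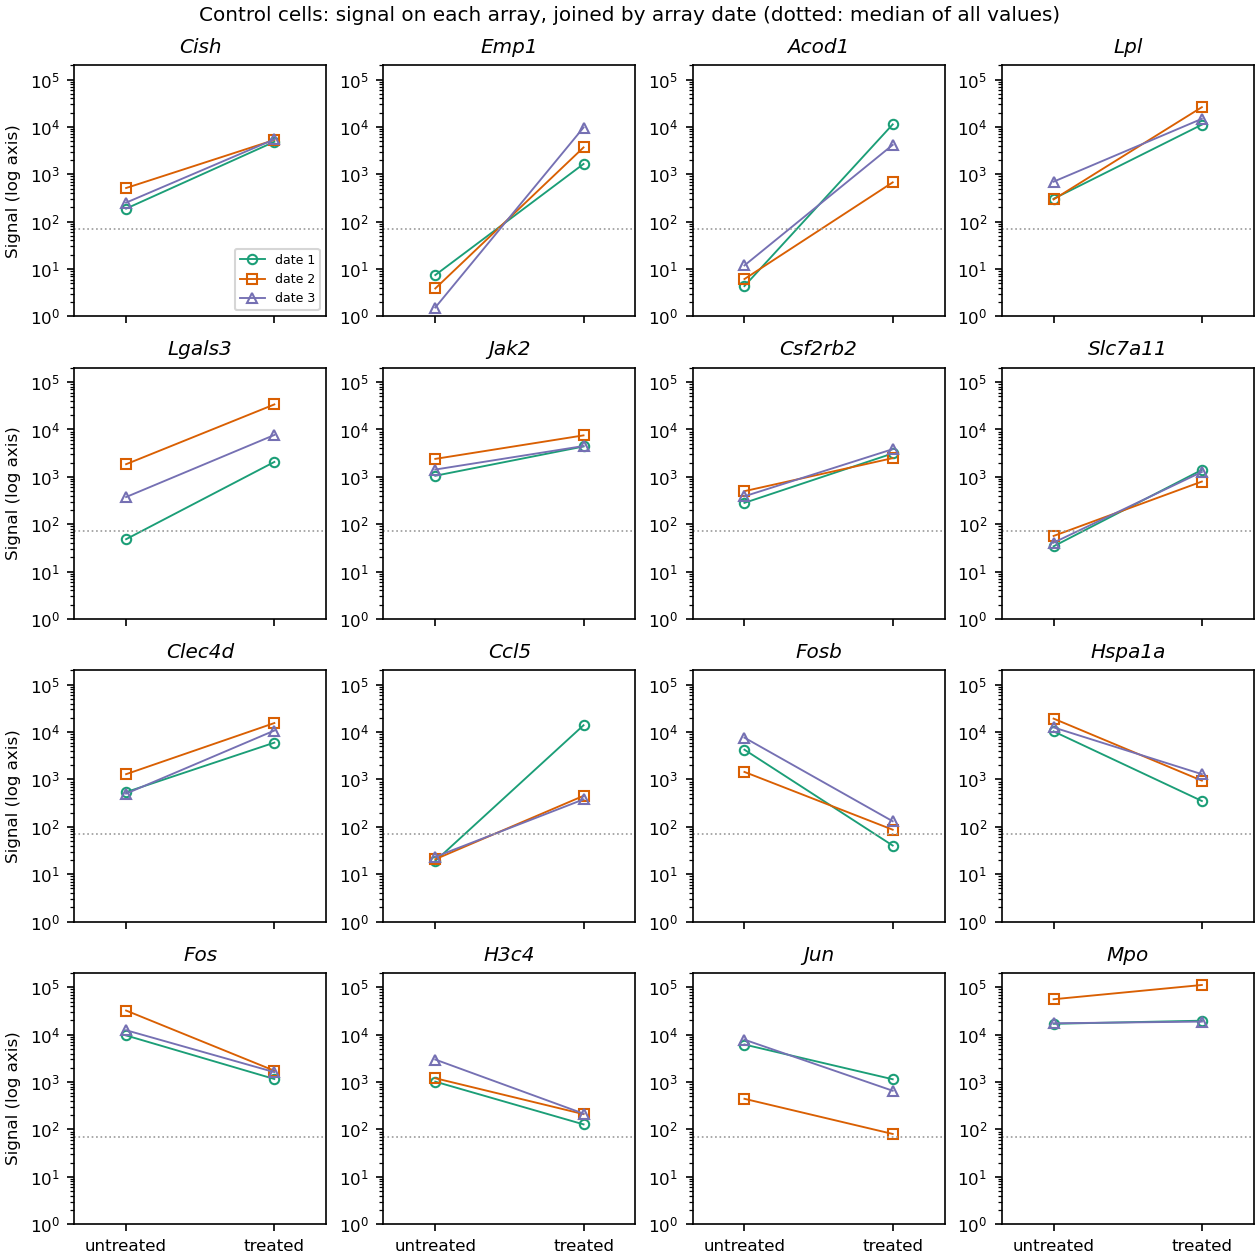
Signal on each control array (log axis) for 16 genes, with the untreated and treated array of 1 date joined by a line and the median of all values dotted. The lines of Cish, Jak2 and Csf2rb2 lie close together, Lgals3 and Jun differ between dates far more in level than in slope, Ccl5 reaches 13924 on date 1 alone, and Mpo is high on all 6 arrays.

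Some NF-κB genes rose. Of 28 subunit and feedback genes tested, 6 rose and none fell (4 to 16 rose in the fits without 1 array), 27 had an estimate above 0, against 5533 of all 11815 genes, and the median was 0.84. Relb, a subunit of the noncanonical pathway, read 5.22, 3.53 and 7.25 untreated and 1785, 119 and 639 treated, a rise of 4.88 ± 0.75 (limma, adjusted p = 0.00618). Untreated signals were below 10 on all arrays, and the date 2 treated array was the lowest of the treated ones. Map3k8, a kinase upstream of ERK, rose by 3.02 ± 0.45 and the ribonuclease gene Zc3h12a, which limits inflammatory mRNA, by 2.05 ± 0.27. Zc3h12a read 43.6, 47.7 and 35.5 untreated and 232, 202 and 213 treated. Nfkbia, the inhibitor of NF-κB, was already high at 8357, 15728 and 12789 untreated, read 18599, 17205 and 17422 treated and was not past the threshold (0.58 ± 0.26, adjusted p = 0.216).

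A minority of chemokine and cytokine genes passed the threshold, all of them higher, and several differed widely between dates. Ccl5, a chemokine of T cells and monocytes, read 18.96, 20.7 and 23.2 untreated and 13924, 451 and 379 treated. All treated arrays were above the untreated ones, but date 1 was far above the other 2, and the rise of 5.33 ± 1.11 (limma, adjusted p = 0.0217) lost its call without untreated replicate 1 or 2 or treated replicate 1 or 3 (adjusted p up to 0.0924). Cxcl10 read 34.6, 209.5 and 168 untreated and 12548, 728 and 3642 treated, a rise of 4.71 ± 0.95 that lost its call without untreated replicate 1 or 3 or treated replicate 1 or 3 (adjusted p up to 0.0739). Cxcl3, a neutrophil chemokine, rose by 3.78 ± 0.67, which was lost without untreated replicate 2 (adjusted p = 0.0528). Of 24 chemokine and receptor genes 6 rose and none fell (1 to 9 in the fits without 1 array), against 4.21% higher of all genes. The median was 1.37. Among 27 secreted cytokines and growth factors 5 rose (2 to 6), led by Saa3, an acute phase protein, from 74.8, 124 and 145 to 8922, 995 and 1869 (4.38 ± 0.66, limma, adjusted p = 0.00599). Tnf read 106, 83.4 and 345 untreated and 3729.8, 299.6 and 4655 treated. Its date 2 treated value lay below the highest untreated one, and the rise of 3.46 ± 0.59 was lost without treated replicate 3 (adjusted p = 0.0547). Hbegf, an EGF-like growth factor, rose by 2.36 ± 0.36 from 116, 97.8 and 157 to 321, 811 and 1186.

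Interferon-stimulated genes had a median of 0.81, but 2 of 35 rose and 1 fell (0 to 3 and 0 to 1 in the fits without 1 array). The share called was 8.57%, near the 6.77% of all genes. The antiviral gene Rsad2 read 335, 437 and 456 untreated and 19065, 859.5 and 2591 treated, a rise of 3.07 ± 0.78 (limma, adjusted p = 0.0445) that passed without treated replicate 2 or knockout treated replicate 2 and in none of the other 10 fits. Its date 1 treated array was far above the others. The immunoproteasome gene Psmb9 fell by 1.33 ± 0.26, which was lost without untreated replicate 2 or 3 or treated replicate 3 (adjusted p up to 0.0964). Rsad2, Ccl5, Cxcl10, Serpinb2, Steap4 and Slc15a3 had the widest ranges of change between dates among the genes called. Steap4, a metalloreductase, read 5.02, 2.07 and 4.74 untreated and 3123, 32.6 and 265 treated. For all of them date 1 gave the largest change.

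Some receptors of innate immunity rose. Of 33 C-type lectin, Toll-like and scavenger receptor genes 10 rose and 1 fell (2 to 11 rose in the fits without 1 array), with a median of 0.96. Clec4d, a C-type lectin that recognises mycobacterial glycolipid, read 540.1, 1292 and 502 untreated and 5986, 15500.4 and 10765 treated. No array overlapped and the rise was 3.80 ± 0.23 (limma, adjusted p = 1.12e-04). Its partner Clec4e, also known as Mincle, read 882, 934 and 777 untreated and 11083, 2882 and 7717 treated, a rise of 2.84 ± 0.37 (adjusted p = 0.00266). Cd14, the coreceptor for lipopolysaccharide, rose by 2.63 ± 0.46, which was lost without treated replicate 3 (adjusted p = 0.0553). The summed monocyte and macrophage signal given above was also higher at both ends of its range with treatment. That sum includes Cd14 itself, which read 417, 829 and 1411 untreated and 6583, 1979 and 9344 treated. Its brightest member, Csf1r, was not past the threshold (0.56 ± 0.22, limma, adjusted p = 0.155). Of its 8 tested members 5 had an estimate above 0, while Ccr2, Cd68 and Cx3cr1 were below. The part of monocytes and macrophages in these rises was not tested.

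Several costimulatory genes rose. None of the 5 class II α and β chain genes tested (H2-Aa, H2-Ab1, H2-Eb1, H2-DMa and H2-Oa) passed the threshold. Of 19 genes of both kinds 7 rose and none fell (4 to 9 in the fits without 1 array), with a median of 1.10. Cd86, a ligand of CD28, read 17.7, 35.7 and 60.1 untreated and 145, 403 and 332 treated, a rise of 2.57 ± 0.31 (limma, adjusted p = 0.00185). The maturation marker Cd83 rose by 3.01 ± 0.47 from 27.6, 51.5 and 21.1 to 521, 213 and 374. Cd274, which encodes PD-L1, rose by 2.39 ± 0.35 and the inhibitory receptor gene Cd200r1 by 2.48 ± 0.42. H2-Ab1, a class II β chain gene, read 524, 466 and 429 untreated and 487, 203 and 288 treated, at -0.60 ± 0.25 (adjusted p = 0.177). Among 34 myeloid and dendritic transcription factor genes 10 rose and 3 fell (3 to 12 and 0 to 4). Irf4 rose by 2.68 ± 0.45, lost without treated replicate 3 (adjusted p = 0.0503). Irf8, which directs progenitors toward monocytes and dendritic cells, read 6132, 12638 and 6650.2 untreated and 4490.0, 3821 and 1651 treated. Every treated array was below every untreated one, and fell by 1.39 ± 0.31 (adjusted p = 0.0292), a call lost without untreated replicate 2 or 3 or treated replicate 2 or 3 (adjusted p up to 0.138).

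Genes of the amino acid response formed the list with the highest share of rises. This response follows uncharged tRNA or stress in the endoplasmic reticulum, acts through the transcription factor ATF4, and turns on amino acid synthesis and transport. Of 30 genes 16 rose and none fell (10 to 18 in the fits without 1 array), against 4.21% higher of all genes, and the median was 1.45. Nupr1, a stress-induced chromatin protein, read 2.35, 3.997 and 3.81 untreated and 555, 469.6 and 356 treated, a rise of 4.83 ± 0.34 (limma, adjusted p = 1.13e-04). Trib3, a pseudokinase that feeds back on ATF4, went from 10.9, 54.1 and 45.2 to 2168, 489.8 and 1272 (4.63 ± 0.63). Both were below the median of all values on the untreated arrays and far above it on the treated ones.

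Enzymes and transporters of this list were among the rises. Chac1, which degrades glutathione, read 58.5, 15.7 and 121 untreated and 1819, 1282 and 1274 treated, a rise of 4.48 ± 0.50. Slc7a11, the cystine transporter, read 34.2, 56.6 and 40.9 untreated and 1406, 796 and 1271 treated (4.34 ± 0.34, limma, adjusted p = 2.12e-04). Groups did not overlap for either gene. Mthfd2, a mitochondrial folate enzyme, and Gpt2, an alanine transaminase, both named after their values were seen, rose by 2.44 ± 0.20 and 3.34 ± 0.22. Gpt2 read 155, 152 and 164 untreated and 2101, 1639 and 1438 treated. Atf4 itself, likewise named afterwards, read 4158, 1075 and 4767 untreated and 9112, 1611 and 8721 treated and was not past the threshold (0.86 ± 0.35, adjusted p = 0.176). Of 19 aminoacyl-tRNA synthetase genes 4 rose (1 to 4, the lowest without untreated replicate 1, 2 or 3 or treated replicate 1), led by Aars at 1.54 ± 0.24, from 2541, 1712 and 2109.9 to 7676, 4668 and 6372.

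Windows of 3 of these promoters are shown because they hold the composite ATF and C/EBP motif TGATGNAA, in capitals, on either strand (RefSeq, GRCm38.p6). They lie at chr7:126625471-126625620 on the - strand for Nupr1, chr3:50443614-50443719 on the - strand for Slc7a11 and chr2:119351009-119351241 on the + strand for Chac1, and end at the base before the annotated start. The matches begin 110 bases before the start for Nupr1, 66 and 47 for Slc7a11 and 193 for Chac1.
Nupr1: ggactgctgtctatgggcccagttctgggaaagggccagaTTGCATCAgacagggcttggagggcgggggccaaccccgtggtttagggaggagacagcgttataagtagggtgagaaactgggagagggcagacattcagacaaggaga
Slc7a11: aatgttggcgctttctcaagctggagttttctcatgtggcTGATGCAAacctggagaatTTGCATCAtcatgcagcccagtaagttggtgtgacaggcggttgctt
Chac1: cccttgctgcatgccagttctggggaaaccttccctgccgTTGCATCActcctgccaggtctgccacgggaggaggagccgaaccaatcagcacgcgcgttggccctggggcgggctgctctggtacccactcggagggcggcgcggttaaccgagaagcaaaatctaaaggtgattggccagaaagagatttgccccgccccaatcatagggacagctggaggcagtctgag
The motif was found in 6 of the 16 largest rises with a promoter sequence, Aqp9, Nupr1, Trib3, Chac1, Slc7a11 and Slc1a4, and in 1 of the 20 largest falls. It was found in 4.51% of all genes.

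Lipid genes and enzymes of macrophage metabolism held some of the largest rises. Emp1, which encodes an epithelial membrane protein of the tetraspan type, read 7.45, 3.88 and 1.54 untreated and 1651, 3686 and 9693 treated, a rise of 7.83 ± 0.66 (limma, adjusted p = 2.58e-04). Acod1, the enzyme that makes itaconate, read 4.37, 6.14 and 11.9 untreated and 11289, 674 and 4167 treated (7.30 ± 0.68, adjusted p = 4.21e-04). Both had untreated signals below 13, so the size of the rise is set in part by the constant added, and the date with the highest treated array differed between them. Another Emp1 probe set, with means of 49.4 untreated and 119 treated, changed by 1.09 ± 0.49. It was not past the threshold (limma over all probe sets, adjusted p = 0.241). Lpl, lipoprotein lipase, was measured well on both sides, at 304, 295 and 698 untreated and 11139, 26067 and 14808 treated, and rose by 5.31 ± 0.44 (adjusted p = 2.58e-04). Aqp9, a channel for glycerol and water, rose by 5.17 ± 0.39, from 90.7, 70.6 and 132 to 6342, 1683 and 5397.

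The lists around these genes held fewer rises. Of 23 genes of lipid uptake, storage and efflux 3 rose (2 to 4 in the fits without 1 array), Lpl, Aqp9 and Gpnmb, and Vldlr counts as not called here. Of 19 genes of itaconate, arginine, polyamine and eicosanoid metabolism 4 rose (2 to 6, lowest without untreated replicate 1 or 2), Arg2 by 2.90 ± 0.44 from 17.1, 32.6 and 46.8 to 394, 141 and 527. Cholesterol and fatty acid synthesis had 7 of 29 higher and none lower (3 to 9), among them Msmo1 at 2.57 ± 0.34, Cyp51 at 1.79 ± 0.28 and Insig1, a sensor protein of the sterol pathway, at 1.66 ± 0.24. Insig1 read 758, 712 and 749 untreated and 1744, 3172 and 2389 treated, with no overlap. Of 24 NRF2-type antioxidant genes 6 rose (1 to 7), Slc7a11 being the only one of the 4 largest that passed in all 12 fits. The next, the sulfiredoxin gene Srxn1, rose by 2.73 ± 0.50, which was lost without untreated replicate 1 or 2 or treated replicate 1 or 3 (adjusted p up to 0.0665).

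Lists of adhesion, protease and survival genes held changes in both directions. Lgals3, the β-galactoside-binding lectin galectin-3, read 48.3, 1849 and 375 untreated and 2066, 33783 and 7655 treated. On each date it rose by a similar amount, 4.52 ± 0.38 (limma, adjusted p = 2.58e-04), from levels that differed so much between dates that the groups nearly met, and without the date block the adjusted p was 0.174. The scaffold gene Ahnak rose by 3.65 ± 0.35, from 165, 177 and 435 to 2286, 1719 and 7561. Of 32 integrin and adhesion genes 6 rose and 2 fell (3 to 6 and 0 to 2). Of 26 genes of plasminogen, serpins, metalloproteases and coagulation 8 rose and 1 fell (1 to 8 rose, the lowest without untreated replicate 3). Serpinb2, the plasminogen activator inhibitor PAI-2, read 9.36, 22.2 and 21.99 untreated and 3838, 134 and 1442 treated, a rise of 4.96 ± 1.05 lost without untreated replicate 1 or 3 or treated replicate 1 or 3 (adjusted p up to 0.0983). Serpinb8 rose by 3.31 ± 0.51 and passed in all 12 fits. F13a1, a coagulation factor subunit made by monocytes, read 8078, 7355 and 9934 untreated and 3309, 3319 and 3022 treated and fell by 1.38 ± 0.24, lost without untreated replicate 3 or treated replicate 3 (adjusted p up to 0.0641). Among 26 BCL2 family and death receptor genes 6 rose and 1 fell (2 to 8 rose). Members of opposite function rose together: the survival gene Bcl2l1, named after its value was seen, by 1.51 ± 0.24, and the death-promoting gene Bcl2l11, called BIM, by 1.66 ± 0.36, the latter lost without untreated replicate 2 or 3 or treated replicate 1, 2 or 3 (adjusted p up to 0.102).

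**Figure D4:**
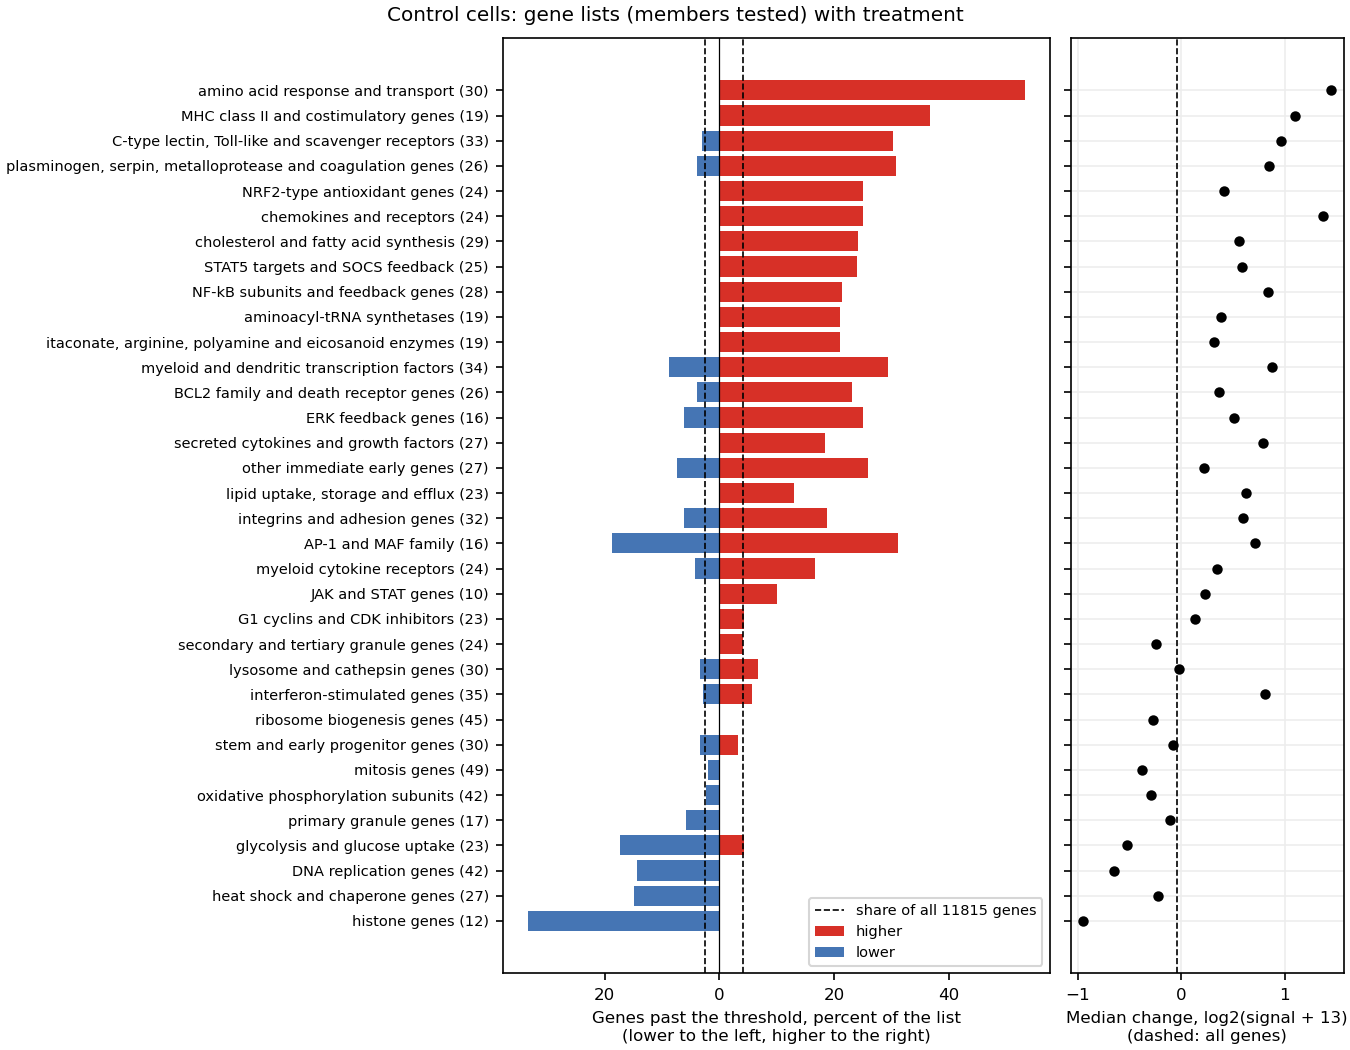
Share of each gene list past the threshold (left, higher to the right in red and lower to the left in blue, with the shares of all genes dashed) and the median change of the list (right). Amino acid response genes lead with 16 of 30 higher, and histone, heat shock, DNA replication and glycolysis genes lie at the lower end.

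A few heat shock genes fell. Hspa1a and Hspa1b, which encode the stress-inducible HSP70 and are near-identical copies whose probes may share transcripts, were among the brightest genes to fall. Hspa1a read 10332, 19238 and 12536 untreated and 351, 943 and 1292 treated and fell by 4.14 ± 0.31 (limma, adjusted p = 1.83e-04). Hspa1b read 9938, 28831 and 9683 untreated and 647, 592 and 1943 treated and fell by 3.93 ± 0.50. In both genes every untreated array was above every treated one. Hspa2 fell by 1.73 ± 0.26 and the cochaperone gene Dnajb1 by 1.12 ± 0.23, the latter lost without untreated replicate 1, 2 or 3 or treated replicate 3 (adjusted p up to 0.0817). In all 4 of 27 heat shock and chaperone genes fell and none rose (3 to 4 in the fits without 1 array). The cytosolic chaperone gene Hsp90aa1 (0.18 ± 0.22) and the endoplasmic reticulum chaperone gene Hspa5 (-0.27 ± 0.27) were not past the threshold.

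The Hspa1a promoter (RefSeq, GRCm38.p6, - strand, chr17:34972157-34972300) is shown up to the base before its annotated start because it holds the heat shock element core GAANNTTC, in capitals, beginning 104 bases before the start.
Hspa1a: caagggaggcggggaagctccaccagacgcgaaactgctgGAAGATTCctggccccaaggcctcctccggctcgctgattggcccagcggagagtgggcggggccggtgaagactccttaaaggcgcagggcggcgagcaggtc
This core was found in 4 of the 20 largest falls, Hspa1a, Hspa1b, Jun and Frmd4b, in 1 of the 16 rises and in 9.04% of all genes. The cyclic AMP element TGACGTCA was found in Dusp1 and Dio2 of the 20 falls, in none of the 16 rises and in 2.03% of all genes.

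Some histone and DNA replication genes fell. Of 12 histone genes tested 4 fell and none rose (2 to 6 fell in the fits without 1 array), with a median of -0.95. H3c4, a replication-dependent histone gene, read 1019, 1204 and 2984 untreated and 128, 210.1 and 215 treated and fell by 3.01 ± 0.30 (limma, adjusted p = 7.86e-04). H3f3b, which encodes the replication-independent variant H3.3, fell by 3.94 ± 0.55, from 4122, 1553 and 5445 to 261, 66.1 and 440.5. Of 42 DNA replication genes 6 fell and none rose (0 to 9, with none lower without untreated replicate 1 or treated replicate 3), and the median was -0.65. Rfc2, a clamp loader subunit, fell by 1.17 ± 0.22, lost without untreated replicate 1, 2 or 3 or treated replicate 3 (adjusted p up to 0.0614), and Mcm7 was not past the threshold (-0.20 ± 0.23). Of 49 mitosis genes 1 fell, Aurkb (2.04%, against 2.56% lower of all genes), with a median of -0.38. Of 23 glycolysis genes 4 fell and 1 rose (0 to 7 and 0 to 1, with none lower without untreated replicate 1 or 3), Pfkl by 1.48 ± 0.27, lost without untreated replicate 1 or 3 (adjusted p up to 0.0623).

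Most genes of neutrophil granules and of early progenitors gave no call. Of 17 primary granule genes 1 fell, Gusb (5.88%). Of 24 secondary and tertiary granule genes 1 rose (4.17%), Arg2, already described with the arginine genes. Over all genes 2.56% fell and 4.21% rose. Elastase, Elane, read 9778, 9507 and 11097 untreated and 6216, 6854 and 9146 treated, below every untreated array but not past the threshold (-0.47 ± 0.32, adjusted p = 0.434). Among 30 stem and early progenitor genes Ikzf2 rose and Cd48 fell, a share of 6.67%, close to the 6.77% of all genes. These calls, like those of Gusb and Aurkb, were lost without treated replicate 3, and Cd34 was at -1.25 ± 0.45 (limma, adjusted p = 0.132). None of 45 ribosome biogenesis genes and 1 of 42 oxidative phosphorylation genes, Cox7c (lost without untreated replicate 2 or 3, adjusted p up to 0.059), passed the threshold in limma, against 6.77% of all genes. The interval around a change reached a median of 0.644 to either side at 95% confidence, so smaller shifts of single genes were not resolved.

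Some of the largest changes lay outside the lists. Rasgrp3, an exchange factor that activates RAS, read 2.67, 10.02 and 8.06 untreated and 125, 859.6 and 526 treated, a rise of 4.35 ± 0.53 (limma, adjusted p = 0.00192). Col4a1, a basement membrane collagen gene, went from 49.7, 32.3 and 48.2 to 738, 1428 and 1024, a rise of 4.22 ± 0.36. Both passed in all 12 fits and neither overlapped between groups. The summed signal of the 11 stroma and endothelium markers was 1380 to 2791 untreated and 2652 to 4894 treated, with no member called. Of the 5 members tested 3 had estimates above 0, Pdgfrb, Vcam1 and Acta2. Those of Col1a2 (-0.13 ± 0.32) and Kdr (-0.05 ± 0.27) were below 0. Pdgfrb read 485, 1283 and 145 untreated and 1436, 1632 and 315 treated. Vcam1 read 470, 183 and 2015 untreated and 3034, 134 and 1954 treated, a rise on date 1 alone. The part of stromal cells in the rise of Col4a1 was not tested. Among the falls were Chdh, choline dehydrogenase, by 2.79 ± 0.35 from 6194, 2713 and 4336 to 1369.6, 411 and 364, and Phldb2, by 2.94 ± 0.35 from 298, 424 and 366 to 30.8, 36.8 and 39.2. Rgs2, a regulator of G protein signalling, was bright at 6341, 11421 and 8989 untreated, read 1708, 2275 and 3789.8 treated and fell by 1.82 ± 0.31 (adjusted p = 0.00934). Dio2, which activates thyroid hormone, fell by 2.39 ± 0.42, lost without untreated replicate 2 or 3 or treated replicate 1 or 3 (adjusted p up to 0.0615).

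Among the 10 rises of at least 1 with the highest mean signal, 1 passed in all 12 fits, Pim1, against 187 of all 800 called genes. Fth1, the ferritin heavy chain, read 9268, 15967 and 8368 untreated and 16827, 48238 and 14806 treated, a rise of 1.09 ± 0.28 (limma, adjusted p = 0.0493) that passed without either knockout array of date 2 and in none of the other 10 fits. Hmgcs1, an early enzyme of the sterol pathway, rose by 1.11 ± 0.20, lost without untreated replicate 1 or 3 or treated replicate 1 or 3 (adjusted p up to 0.0832). For both genes the date 2 untreated array exceeded at least 1 treated array of another date.

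The same treatment in knockout cells gave changes of the same sign for most genes. Of the 497 genes that rose in control cells 487 also had an estimate above 0 in knockout cells, and 301 of the 303 that fell were below 0. The median knockout change over all genes was -0.024. Over all genes the 2 changes correlated with a Pearson r of 0.80, as a description over genes that are not independent. The knockout estimates come from the same fit but from other arrays. No gene passed the threshold for the difference between the responses (0%, limma, Benjamini-Hochberg adjusted p of at least 0.484). At an unadjusted p under 0.05 in limma there were 291 of 11815 genes. That is a smaller share than the 0.05 to be expected where no gene differs. Among the genes called in control cells the 8 with the smallest p for this difference are given as values. Cish changed by 4.10 ± 0.26 in control and 1.58 ± 0.26 in knockout cells, a difference of 2.53 ± 0.36. Batf3 changed by 4.55 ± 0.64 and 0.46 ± 0.64, and Rasgrp3 by 4.35 ± 0.53 and 0.81 ± 0.53. Hs3st3b1, a heparan sulfate sulfotransferase gene, changed by 3.90 ± 0.41 and 0.89 ± 0.41. Its other passing probe sets changed by 0.089 and 0.24 in control and by 0.11 and -0.064 in knockout cells. The growth factor gene Hbegf stood at 2.36 ± 0.36 and -0.42 ± 0.36, the fatty acid elongase gene Elovl7 at 1.42 ± 0.24 and -0.31 ± 0.24, and Lyrm1 at 1.51 ± 0.26 and -0.054 ± 0.26. E330020D12Rik stood at 2.36 ± 0.42 and -0.78 ± 0.42. With array weights Cish passed the threshold for the difference (adjusted p = 0.0156).

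Socs2 differed in the same direction in the probe sets that rose. In the set that read 470.4, 1445 and 718 on the treated control arrays, the knockout means were 21.97 untreated and 29.1 treated. Its change was 5.01 ± 0.36 in control and 0.39 ± 0.36 in knockout cells, a difference of 4.63 ± 0.51 (limma over all probe sets, adjusted p = 0.0713). The other set gave 4.44 ± 0.33 and 0.79 ± 0.33 (adjusted p of the difference = 0.152). With a filter at a signal of 200, where that first set stands for the gene, the difference passed the threshold (adjusted p = 0.0220). Acod1, Lpl, Nupr1 and Fosb changed by 8.54 ± 0.68, 5.11 ± 0.44, 4.57 ± 0.34 and -4.99 ± 0.48 in knockout cells.

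**Figure D5:**
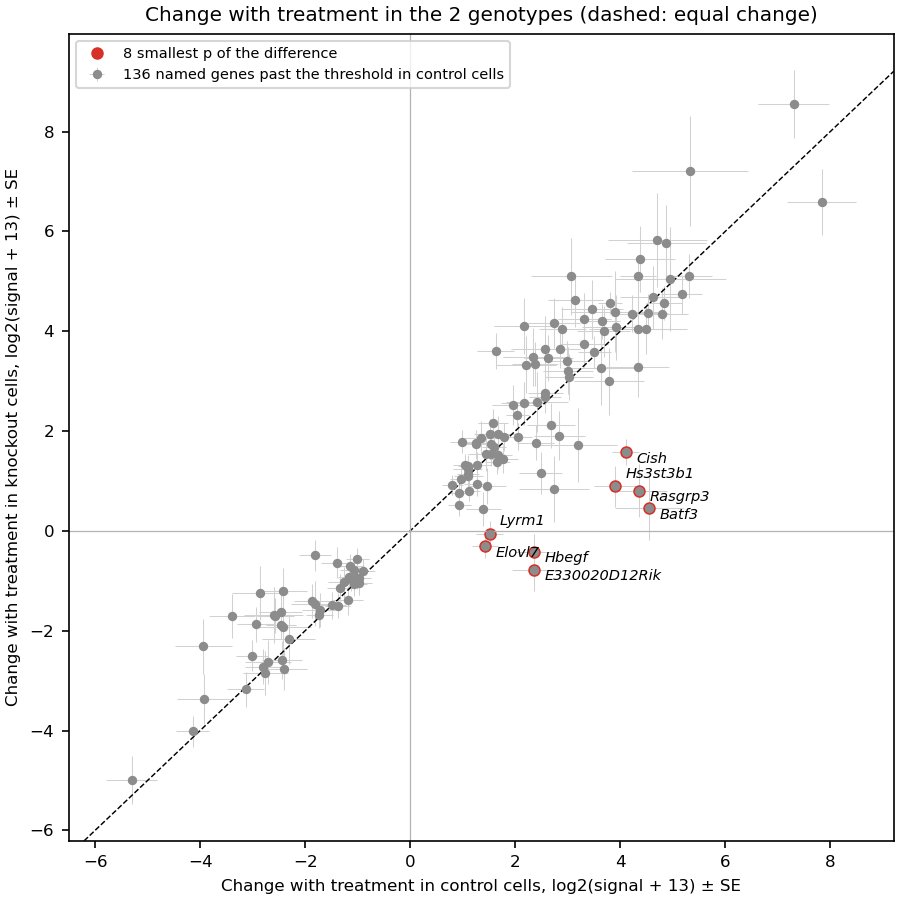
Change with treatment in knockout cells against that in control cells for the 136 named genes called in control cells, with SE bars and the line of equal change dashed. Most points lie along the line, and the 8 genes with the smallest p for the difference (red points) lie below it.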

How the data were processed

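RNA of control and knockout cells, treated and untreated, was hybridised to 12 Affymetrix mouse arrays, 3 in each of 4 groups. The deposited values are linear intensities computed by the authors with MAS5, per the submitters' processing notes, and each array has a trimmed mean of 500.003 to 500.004. Probe-level files were not used here. MAS5 estimates background from mismatch probes, so values near background are unstable. Of 45101 probe sets, 34945 carry 1 gene symbol, 932 several and 9160 none, and 64 are array controls; the 1-symbol sets were used, and 34741 matched a RefSeq gene.

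Here log2(intensity + 13) was computed, 13 being the 20th percentile of all values (12.8) rounded up. Probe sets had to exceed the overall median signal on 3 or more arrays to pass, and the passing set with the highest mean log2 stood for its gene. limma 3.58.1 (R 4.3.3) fitted a mean per group plus a term for each array date, with Benjamini-Hochberg adjustment over all genes at a threshold of 0.05. ± in a change is the standard error, with n = 3 arrays a group. The pairing comes from the date in the array titles: deviations from the group means correlated at 0.36 to 0.75 in the 18 same-date pairs of arrays, at 0.63 to 0.75 in the 3 control pairs and at -0.66 to 0.40 in 36 pairs of different date and group. The script was tested on simulated data. Python 3.11.15 drew the figures with matplotlib 3.10.9. The number of arrays limits the precision.

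The genes and lists were chosen with earlier results of these data known. Named genes are the 20 largest rises and 20 largest falls with the same sign on all dates; the 10 brightest rises and falls of at least 1; the 6 with the widest range between dates; up to 4 called and the 2 brightest uncalled members of each list; Cish, Acod1, Emp1, Lpl, Fosb, Stat5a, Stat5b and the progenitor markers; and the 8 called genes with the smallest p for the difference between genotypes. Not all are printed. Egr1, Atf4, Mthfd2, Gpt2, Bcl2l1, Thy1 and the 6 genes with discordant probe sets were named after their values were seen. Alternatives were other pseudocounts, filters, normalization, probe set rules, variance priors, array weights, no block, control arrays alone, and fits without an array or a date.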

Additional observations from a re-analysis of the deposited data

Results flagged for a closer look

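In 3 genes called or named in control cells the change had 1 sign on all 3 dates in control cells and the opposite sign on all 3 dates in knockout cells. Elovl7, a fatty acid elongase gene, changed by 1.42 ± 0.24 in control and -0.31 ± 0.24 in knockout cells, a difference of 1.73 ± 0.34 (limma, adjusted p = 0.858). E330020D12Rik changed by 2.36 ± 0.42 and -0.78 ± 0.42, a difference of 3.14 ± 0.59 (limma, adjusted p = 0.858). Zfp36l2, which encodes an mRNA-destabilising zinc finger protein, changed by -0.49 ± 0.30 and 0.20 ± 0.30, a difference of -0.69 ± 0.42. None of the 3 differences passed the threshold in limma, and Zfp36l2 was not called in control cells (adjusted p = 0.369). How many of all genes show this pattern of signs is not given here, so the 3 are a description only.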

How the results depend on the processing

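The fit without the date block, which ignores the pairing of arrays, called 135 genes higher and 30 lower, against 497 and 303 with it, and the control arrays alone with the block gave 163 and 51. Array weights gave 1234 and 1036, and no filter on low values 310 and 133. A pseudocount of 64 gave 457 lower, and the fit without date 2 gave 458 lower. Without date 1 the counts were 68 and 12, and without date 3 they were 34 and 6. Leaving out 1 array at a time gave 169 to 589 higher and 68 to 449 lower. A pseudocount of 1, the stricter filter, quantile normalization, the mean of probe sets and a trended robust prior kept both counts within 1.5 times. No gene differed between genotypes except 1 under the stricter filter (Socs2) and 1 with array weights (Cish); control arrays alone give no such difference. The stricter filter left 207 of the 211 named genes with a value. No named gene called in control cells changed direction under any alternative run. The median change over all genes stayed between -0.078 and 0.0085. The 6 residual degrees of freedom and the unstable low signals of MAS5 limit what could be detected, as do the date 2 arrays with their high 3' over 5' ratios. The cause of these shifts was not tested.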
